A study of Mus musculus with 17 samples.

Results

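The snoRNA host transcripts described here are 10 long noncoding RNAs that carry small nucleolar RNAs (snoRNAs) in their introns: Snhg1, Snhg3, Snhg4, Snhg5, Snhg6, Snhg8, Snhg12, Snhg15, Gas5 and Zfas1. They were chosen by gene symbol from a table of 35321 genes, and all 10 were among the 14920 genes with enough reads to be tested. Snhg3 was further singled out because its response to an antibody against the interleukin-10 receptor (IL-10R) differed between 24 h and 72 h in these same libraries. All 4 groups that received LPS enter that contrast, so the values of Snhg3 are given as a description throughout, and counts of hosts are also given over the 9 others. The study measured polyadenylated RNA by sequencing in cells labelled hematopoietic stem and progenitor cells, or HSPC, the bone marrow population that gives rise to all blood lineages. All mice were wild-type C57BL/6J, and all received an intraperitoneal injection before their bone marrow was taken and the cells were sorted by flow cytometry. One group received phosphate-buffered saline (PBS, 5 libraries, labelled day 0). The other groups, of 3 libraries each, received lipopolysaccharide (LPS, the endotoxin of Gram-negative bacteria) alone or together with the IL-10R blocking antibody, 24 h or 72 h before harvest. The amounts, 5 of LPS and 100 of antibody, are in micrograms in one description of the study and in milligrams in another. No group received the antibody without LPS or an isotype control. Age and sex are not given, and the labels do not say that each library came from a separate mouse, so p-values measure only the spread between these libraries, which may be technical.

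snoRNAs guide chemical changes on ribosomal RNA. Those of the box C/D class guide methylation of the ribose and those of the box H/ACA class guide the conversion of uridine to pseudouridine, and in mammals most are cut out of the introns of a host transcript. What is left after splicing, the exons of the host, is the RNA that a polyadenylated library reads, and the snoRNAs themselves are not polyadenylated. Many hosts begin with a run of pyrimidines at the cap (a terminal oligopyrimidine or TOP start), as the messages of ribosomal proteins do, and several spliced hosts are known to be degraded by nonsense-mediated decay when they are translated. A host level therefore reflects its transcription and its decay, and is no measure of the snoRNA made from it. The count table held 0 rows with a symbol beginning Snord or Snora.

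Libraries held 10516722 to 16006001 counts, and the 10 hosts together took 0.0717% to 0.152% of them. Levels are given as CPM, that is, each gene's counts relative to the total of the library, after scaling with TMM factors (trimmed mean of M-values). Of 10 HSPC markers, 0 were at 0 in any library, with Kit at 228 to 589 CPM and Cd34 at 234 to 848 CPM, but their summed level was lower in all 3 LPS 24 h libraries (936 to 1109 CPM) than in PBS (1613 to 2440). Other lineages were also read: the 10 monocyte and macrophage markers summed to 401 to 2775 CPM in PBS and 130 to 153 at 24 h of LPS, and 10 of 10 were lower by the test. Erythroid markers ran from 6.00 CPM in an LPS 72 h library to 1774 CPM in an LPS with antibody 24 h library, and the globins Hba-a1, Hba-a2 and Hbb-bs were at 0 in 2 or 3 libraries. B-lymphoid markers summed to 417 to 1389 CPM in PBS and 75.5 to 104 at 24 h of LPS, where 4 of 10 were called lower; T and NK markers, 3 of 10 lower there, overlapped (141 to 297 against 114 to 280), as did neutrophil granule genes (2533 to 15100 against 8859 to 17640). The part of such changes in cell makeup in the results below was not tested. In bulk RNA, fewer cells of a type and less RNA per cell cannot be told apart. Library 1 of LPS 24 h stood apart, with the lowest TMM factor (0.799), the fewest genes detected (16431) and the highest summed level of ribosomal protein messages (169100 CPM, against 88280 and 96820 in the other libraries of its group). It had the highest value of its group for 10 of 10 hosts, and library 1 of LPS with antibody at 24 h for 9 of 10. The recorded names of both these libraries are written in another style than those of the other LPS libraries, and those of the PBS libraries in yet another. Whether this marks a batch is not stated, and for PBS it cannot be told apart from the group.

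In the RefSeq annotation of GRCm38.p6, Snhg3 holds the box H/ACA snoRNA genes Snora73a and Snora73b (U17, needed for cleavage of the precursor of ribosomal RNA), Snhg4 holds Snora74a, Snhg8 holds Snora24, and Snhg12 holds Snora16a, Snora44 and Snora61 together with the box C/D gene Snord99. Hosts taken here as box C/D hosts are Gas5 with 8 snoRNA genes inside, Snhg1 with 8, Zfas1 with 3, Snhg5 with 2 and Snhg6 with 1 (Snord87). Box C/D names in the annotation are Snord47 in Gas5, Snord22 in Snhg1 and Snord12 in Zfas1, and none in Snhg5. The names of the other snoRNA genes in these hosts do not give a class. Snhg15 holds 1 snoRNA gene, whose class is not given by its name either. Starts of 8 of the 10 hosts were covered by RefSeq promoter sequences. The 7 starts below are shown because the transcripts that rose after LPS at 24 h and those that were not called can be compared in them letter by letter. Each runs from 60 bases before to 50 bases after the annotated start, read along the strand of the transcript. Capitals mark TATA beginning 40 to 16 bases before the start, a C followed by at least 4 pyrimidines beginning within 10 bases before to 15 bases after it, TGACGTCA (the cAMP response element) and CACGTG (an E-box, the kind of site that MYC and MAX bind).
Snhg3 (chr4:132353637-132353746, minus strand): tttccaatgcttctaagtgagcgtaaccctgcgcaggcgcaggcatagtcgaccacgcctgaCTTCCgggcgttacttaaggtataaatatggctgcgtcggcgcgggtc
Snhg5 (chr9:88522848-88522957, minus strand): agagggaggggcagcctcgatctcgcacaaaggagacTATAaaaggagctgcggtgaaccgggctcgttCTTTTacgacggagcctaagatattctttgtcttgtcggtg
Snhg15 (chr11:6528711-6528820, minus strand): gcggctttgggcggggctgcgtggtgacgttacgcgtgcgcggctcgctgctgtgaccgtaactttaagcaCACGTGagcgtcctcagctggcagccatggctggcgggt
Snhg1 (chr19:8723427-8723536, plus strand): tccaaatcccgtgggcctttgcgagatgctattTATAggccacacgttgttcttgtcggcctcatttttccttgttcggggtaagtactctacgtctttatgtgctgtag
Snhg12 (chr4:132308618-132308727, plus strand): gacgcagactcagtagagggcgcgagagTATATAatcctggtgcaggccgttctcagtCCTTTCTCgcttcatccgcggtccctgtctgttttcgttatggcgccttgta
Snhg8 (chr3:123508287-123508396, minus strand): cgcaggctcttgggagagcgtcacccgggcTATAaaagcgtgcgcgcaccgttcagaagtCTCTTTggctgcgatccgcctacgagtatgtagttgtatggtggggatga
Gas5, the second of its annotated starts (chr1:161035106-161035215, plus strand): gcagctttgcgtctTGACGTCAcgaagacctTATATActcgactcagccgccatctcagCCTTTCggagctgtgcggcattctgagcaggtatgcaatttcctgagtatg

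The starts of Snhg1, Snhg5, Snhg8, Snhg12 and Gas5 had TATA in the place searched, which 5 of 9 member windows and 6.32% of 32851 RefSeq promoter windows had (TATA reads the same on both strands). A pyrimidine run on the transcript's strand was found at Snhg3, Snhg5, Snhg8, Snhg12 and Gas5, that is in 5 of 9 member windows against 34.9% of all. Over the whole window from 250 bases before the start, TGACGTCA, the same on both strands, was found at Gas5 and at Snhg15, in the latter 88 bases before the start and so outside the stretch printed; 1.79% of all windows held it. CACGTG, also a palindrome, was found at Snhg15 and in 7.15% of all windows. TATA and pyrimidine runs stood at hosts that rose at 24 h of LPS (Snhg5, Snhg12) and at hosts that were not called (Snhg8, Gas5). These are matches of letters only, and no binding was measured.

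Gas5, whose RNA accumulates in growth-arrested cells, was the most abundant host, at 359 ± 69.3 CPM (SD, n = 5) in PBS. Per kilobase of merged exons, the PBS means were 95.5 CPM per kb for Gas5, 56.9 for Snhg8, 34.6 for Snhg5, 33.2 for Snhg1, 31.8 for Zfas1, 20.4 for Snhg15, 20.3 for Snhg6, 18.1 for Snhg12 and 16.4 for Snhg3. Merged over all annotated transcripts, the exons cover the whole gene, introns included, for Snhg1, Snhg8, Snhg12 and Zfas1. For the other hosts listed they cover only part of it. The divisor is thus not the length of the spliced RNA, and the order holds for this measure only. In this order only Snhg8 against Snhg5 and Zfas1 against Snhg15 did not overlap over the 5 PBS libraries. Every other pair of neighbours overlapped. Snhg4 had no gene model under its symbol in the GENCODE annotation used for lengths and is not placed in the order.

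**Figure D1:**
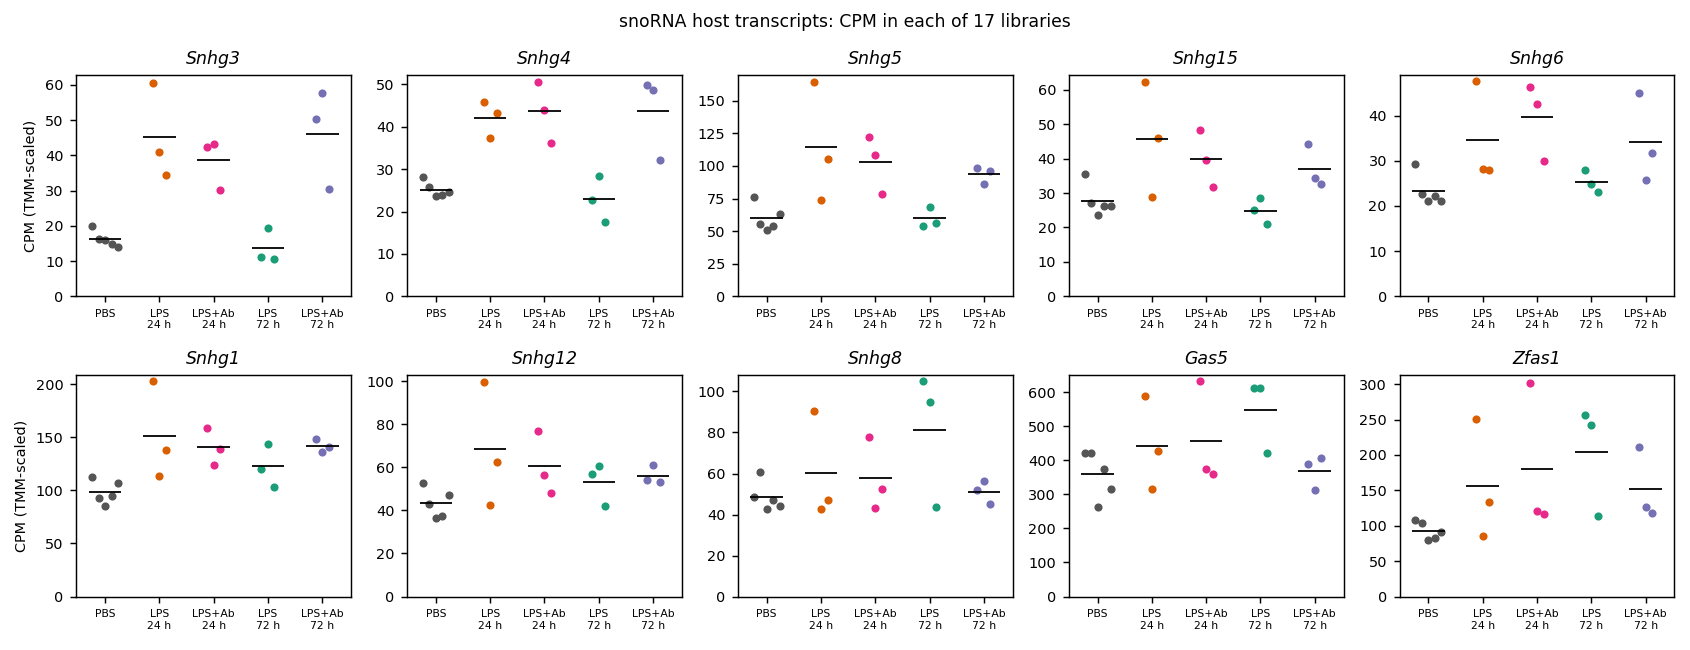
CPM of each host transcript (vertical axes, from 0) in every one of 17 libraries, drawn as points by group, with a line at the group mean (Ab, IL-10R antibody). Snhg3 and Snhg4 are high in both 24 h groups and in LPS with antibody at 72 h, and at the level of PBS in LPS at 72 h, whereas Gas5, Snhg8 and Zfas1 are high in 2 of the 3 LPS 72 h libraries.

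At 24 h after LPS, 7 of the 10 hosts were higher than in PBS and 0 were lower by edgeR's quasi-likelihood test at a Benjamini-Hochberg adjusted p below 0.05 (called). Without Snhg3 this was 6 of 9. Of all genes tested, 37.6% were called in that comparison, 19.1% higher and 18.5% lower. The median log2 change of the hosts was 0.69, against -0.03 over all genes. Snhg3 showed the greatest change of the 10. The called hosts were Snhg1, Snhg3, Snhg4, Snhg5, Snhg6, Snhg12 and Snhg15, and those not called were Snhg8, Gas5 and Zfas1. In 3 of the 7, Snhg1, Snhg3 and Snhg4, every LPS library lay above every PBS library, a pattern shown by 20.6% of all genes.

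Snhg3, host of the U17 snoRNAs, was at 20.0, 16.1, 15.8, 14.8 and 14.1 CPM in the PBS libraries. With LPS at 24 h it was at 60.4, 40.9 and 34.4 CPM. The groups did not overlap, and even the lowest LPS library was above the highest PBS library. The difference, a description, was 1.48 ± 0.24 (log2, SE), or 2.79-fold. Snhg4, host of a second box H/ACA snoRNA, was at 28.1, 25.7, 23.6, 23.8 and 24.6 CPM in PBS and at 46.0, 37.3 and 43.2 CPM with LPS at 24 h. Its groups did not overlap either, and it changed by 0.74 ± 0.17 (log2), or 1.68-fold (edgeR, adjusted p = 0.00361). Snhg4 kept its call without library 1 of LPS at 24 h, at 0.69.

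Snhg5, a TOP host of box C/D snoRNAs, was at 76.1, 55.2, 50.8, 53.8 and 63.2 CPM in PBS and at 164, 74.2 and 105 CPM with LPS at 24 h. Its second LPS library lay just under the highest PBS library and the other 2 above all of them. Snhg5 rose by 0.94 ± 0.21 (log2; adjusted p = 0.00326, edgeR), and by 0.60 without library 1, still called. Snhg1, host of 8 snoRNAs, was at 113, 92.9, 85.3, 94.95 and 107 CPM in PBS and at 203, 114 and 138 CPM with LPS at 24 h. Its lowest LPS library was barely above its highest PBS library. Snhg1 rose by 0.62 ± 0.16 (log2; adjusted p = 0.00852, edgeR). Snhg15, at 23.8 to 35.4 CPM in PBS, was at 62.4, 29.0 and 45.9 CPM (log2 change 0.72 ± 0.21, edgeR adjusted p = 0.0152). Snhg12, which carries snoRNAs of both classes, was at 36.5 to 52.5 CPM in PBS and at 99.8, 42.7 and 62.4 CPM (0.65 ± 0.22, edgeR adjusted p = 0.0318). Snhg6, host of Snord87, was at 21.1 to 29.3 CPM in PBS and at 47.7, 28.2 and 27.9 CPM (0.57 ± 0.21, edgeR adjusted p = 0.0460). In these last 3 the groups overlapped. Library 1 of LPS at 24 h decided 4 of the 7 calls: without it the log2 changes were 0.36 for Snhg1, 0.45 for Snhg15, 0.29 for Snhg12 and 0.28 for Snhg6, with edgeR adjusted p from 0.0784 to 0.348, and 3 hosts were called. Among the controls, the call of Snhg6 was also lost without any one of PBS libraries 2, 3, 4 and 5, and that of Snhg12 without PBS library 2, 3 or 4. With the replicate number as a block, 6 hosts were called and Snhg12 was not (log2 change 0.61, edgeR adjusted p = 0.0582). Whether these numbers pair libraries is not known.

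Gas5, Snhg8 and Zfas1 were not called at 24 h. Gas5 was at 420.3, 423, 262, 374 and 316 CPM in PBS and at 589, 315 and 426 CPM with LPS at 24 h. Only library 1 lay above PBS. Snhg8, at 42.7 to 60.5 CPM in PBS, was at 90.7, 42.6 and 47.3 CPM, again with only library 1 outside the PBS range on the high side. Zfas1, transcribed away from the start of Znfx1 on the other strand, was at 79.8 to 108 CPM in PBS and at 251, 85.8 and 133 CPM. Their log2 changes were 0.30 ± 0.23, 0.31 ± 0.28 and 0.75 ± 0.36. Without library 1 they were 0.06 for Gas5, -0.10 for Snhg8 and 0.25 for Zfas1.

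At 72 h after LPS alone no host was called. By edgeR 0 of 10 hosts were called against PBS in either direction, where 0.0201% of all genes (3) were called; DESeq2 also called 0 hosts. At an unadjusted p below 0.05 there were 3 hosts, Snhg8, Gas5 and Zfas1, all higher, in a comparison where 11.4% of all genes passed that level. Gas5 was at 613, 613 and 420.3 CPM with LPS at 72 h (log2 change from PBS 0.61 ± 0.23, edgeR adjusted p = 0.354). Libraries 1 and 2 lay above all PBS libraries and library 3 within them. Snhg8 showed the same split, with 105, 95.1 and 43.6 CPM (0.74 ± 0.28, adjusted p = 0.348). Zfas1, at 257, 242 and 114 CPM, was above PBS in all 3 (1.14 ± 0.36, adjusted p = 0.269), as 4.96% of all genes were.

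Snhg3 was at 11.2, 19.3 and 10.5 CPM with LPS at 72 h, with 2 of 3 libraries below every PBS library. Its log2 difference from PBS was -0.24 ± 0.25. Snhg4 was at 22.8, 28.3 and 17.5 CPM (-0.14 ± 0.17), Snhg5 at 54.2, 68.4 and 56.5 CPM (0.00 ± 0.21) and Snhg15 at 25.1, 28.5 and 20.9 CPM (-0.16 ± 0.22). All of these overlapped PBS. Between 24 h and 72 h of LPS alone, 4 of 10 hosts were called lower and 0 higher (3 of 9 without Snhg3), where 31.1% of all genes were called and 16.4% were called lower. Apart from Snhg3 (log2 change -1.73, a description), these were Snhg4, which fell by 0.88 ± 0.19 (edgeR, adjusted p = 0.00338), Snhg5, which fell by 0.94 ± 0.24 (adjusted p = 0.00824), and Snhg15, which fell by 0.88 ± 0.24 (adjusted p = 0.0130). All 3 libraries at 72 h lay below all 3 at 24 h in each of them, a pattern shown by 23% of all genes. Without library 1 of LPS at 24 h, Snhg5 (-0.57, adjusted p = 0.0590) and Snhg15 (-0.58, adjusted p = 0.0872) lost the call, leaving 2 of 10. Gas5, Snhg8 and Zfas1 had log2 changes of 0.31, 0.43 and 0.38 over the same time, and none of them passed. Markers of several cell types moved in the same comparison. Of the HSPC markers 6 of 10 were called higher at 72 h than at 24 h (median log2 change 0.96; summed 1656 to 2222 against 936 to 1109 CPM). The T and NK list had 3 of 10 higher (median 1.48), the B-lymphoid list 2 of 10 (1.40) and the monocyte and macrophage list 2 of 10 (0.08). The erythroid list had 2 of 10 lower (median -3.57; summed 6.00 to 110 against 338 to 768 CPM), and the neutrophil granule list 0 of 10 in either direction. Their part in the result was not tested.

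**Figure D2:**
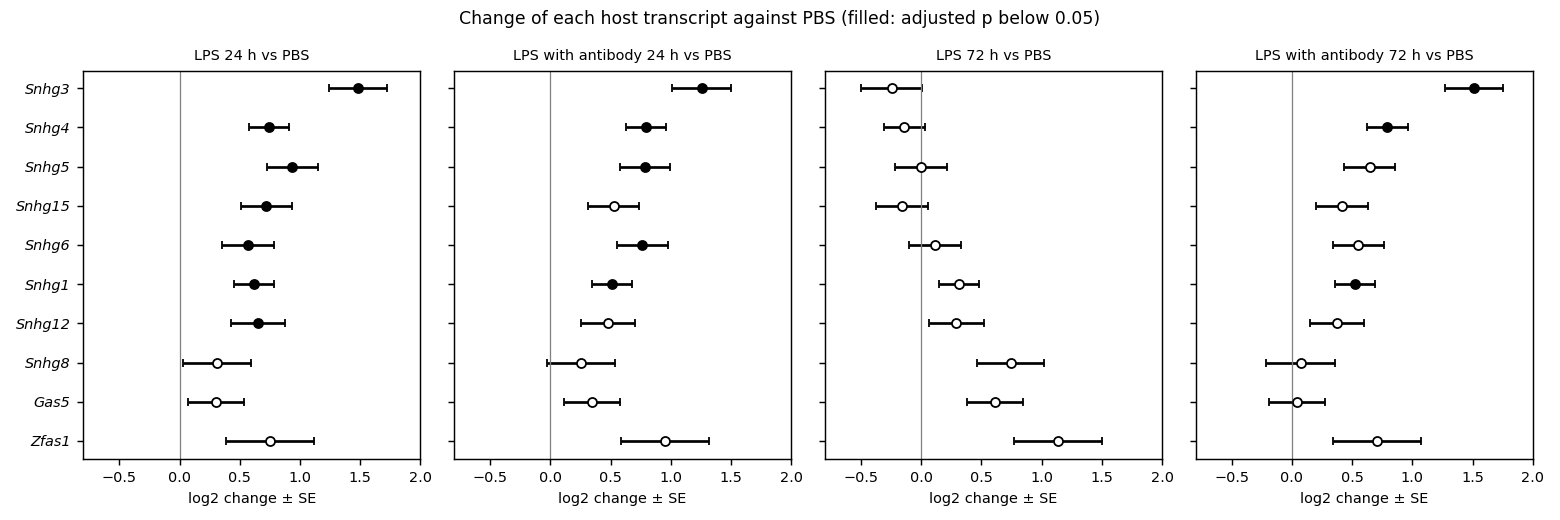
Log2 change of each host against PBS with its standard error (horizontal axes), in 4 panels for LPS and LPS with antibody at 24 h and 72 h, all fitted with the same 5 PBS libraries. Filled points were called: 7 in LPS at 24 h, 5 in LPS with antibody at 24 h, 0 in LPS at 72 h and 3 in LPS with antibody at 72 h.

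With the antibody added, the hosts at 24 h were near their levels with LPS alone. Against PBS, 5 of 10 (4 of 9 without Snhg3) were called higher and 0 lower, with 24.2% of all genes called, 11.7% higher and 12.5% lower: Snhg1 (log2 change 0.51 ± 0.16), Snhg3 (1.25 ± 0.24), Snhg4 (0.79 ± 0.17), Snhg5 (0.79 ± 0.21) and Snhg6 (0.76 ± 0.21), with edgeR adjusted p from 0.00661 to 0.0343 for the 4 besides Snhg3. Snhg3 was at 42.5, 43.1 and 30.2 CPM and Snhg4 at 50.7, 44.0 and 36.2 CPM, all above PBS. Snhg6 was at 46.4, 42.5 and 29.8 CPM, the last just above the highest PBS library. Without library 1, and likewise without library 2, Snhg4 alone of those 4 kept the call, with Snhg1, Snhg5 and Snhg6 at 0.42 to 0.65 and 0.60 to 0.75; the call of Snhg1 was also lost without library 3 of this group and without PBS library 2, 3 or 4. Gas5 (632.5, 375 and 360 CPM) and Zfas1 (302, 121 and 116 CPM) were again highest in library 1. In the same comparison with PBS, 8 of 10 monocyte and macrophage markers were called lower (median log2 change -3.38). Of the HSPC markers 6 of 10 were lower and 1 higher (-1.07). The B-lymphoid list had 3 of 10 lower and the T and NK list 2 of 10. Of the erythroid and neutrophil granule markers 0 were called. The part of these cell types in the result was not tested. Compared directly with LPS alone at 24 h, 0 of 10 hosts were called by edgeR or by DESeq2, and 0 passed an unadjusted p below 0.05, which 1.83% of all genes did; 0% of all genes were called. The log2 differences ran from -0.23 (Snhg3, SE 0.27) to 0.20 (Zfas1, SE 0.41), and the groups overlapped for all 10 hosts.

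At 72 h the antibody group still held Snhg3 and Snhg4 at the levels of 24 h. Against PBS 3 of 10 hosts (2 of 9 without Snhg3) were called higher, with 13.2% of all genes called, 6.81% higher and 6.43% lower: Snhg3 at 50.2, 57.6 and 30.4 CPM (log2 difference 1.51 ± 0.24, a description), Snhg4 at 49.95, 48.7 and 32.2 CPM (0.79 ± 0.17, edgeR adjusted p = 0.0113) and Snhg1 at 149, 136 and 141 CPM (0.52 ± 0.16, adjusted p = 0.0465). In each, all 3 libraries lay above all of PBS, as in 13.4% of all genes. Snhg5, at 98.1, 86.2 and 96.2 CPM, also lay above all PBS libraries but missed the threshold (0.64 ± 0.21, adjusted p = 0.0525). The call of Snhg1 was lost without any one library of this group or any one of PBS libraries 2 to 5 (log2 0.50 to 0.60 over all of the libraries left out in turn, adjusted p up to 0.108). Fitted on these 2 groups alone, 5 hosts were called, Snhg5 and Zfas1 being the other two. Gas5, at 390.5, 312 and 408 CPM, was within the PBS range (0.04 ± 0.23). In this comparison 5 of 10 T and NK markers were called lower (median log2 change -1.93), 3 of 10 monocyte and macrophage markers (-2.59), 2 of 10 HSPC markers (-0.90) and 1 of 10 erythroid markers (-0.03), with 0 higher in these lists and 0 called among B-lymphoid and neutrophil granule markers. Their part in the result was not tested.

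Against LPS alone at 72 h, 2 of 10 hosts were called higher with the antibody, Snhg3 and Snhg4, and 0 lower. Snhg3 was chosen for this difference, which leaves Snhg4 as 1 of 9, while 15.1% of all genes were called, 8.64% higher and 6.48% lower. Snhg4 rose 1.91-fold (log2 0.93 ± 0.19, edgeR adjusted p = 0.00657), with all 3 antibody libraries above all 3 without, as 17.1% of all genes had. It was not called when only these 2 groups were fitted (adjusted p = 0.0573). For Snhg3 the difference was 1.75 ± 0.28 on the log2 scale, from a mean of 13.7 to one of 46.1 CPM, given as a description. Snhg5 (0.65 ± 0.24, adjusted p = 0.0768) and Snhg15 (0.58 ± 0.24, adjusted p = 0.114) had all antibody libraries above the others and were not called. Gas5 went the other way without being called: all 3 antibody libraries were below all 3 of LPS alone (-0.57 ± 0.26, adjusted p = 0.146), as in 16.1% of all genes, and Snhg8 differed by -0.67 ± 0.32 (adjusted p = 0.156) with overlap. Without library 3 of LPS at 72 h, Snhg8 was called lower (-0.93, edgeR adjusted p = 0.0408) and Gas5 was not (-0.69, adjusted p = 0.106). In the antibody groups, 0 of 10 hosts were called between 24 h and 72 h by edgeR or DESeq2, with 0% of all genes called by edgeR. At an unadjusted p below 0.05 there were 0 hosts and 4.26% of all genes. The log2 changes there were 0.25 ± 0.27 for Snhg3 and 0.00 ± 0.19 for Snhg4. The erythroid markers summed to 7.43 to 1054 CPM in the antibody group at 72 h and 6.00 to 110 CPM with LPS alone (median log2 difference 2.27, 0 of 10 called). Of the T and NK markers 2 of 10 were called lower with the antibody (median -1.56), of the HSPC markers 1 of 10 (-0.64) and of the monocyte and macrophage markers 1 of 10 (median 1.83, on the other side of 0), and 0 were called in the B-lymphoid and neutrophil granule lists. Over all 17 libraries the deviations of Snhg4 from its group means went with those of the erythroid sum (r = 0.789), and those of Snhg3 less closely (r = 0.527). Every other host was also positive, from 0.247 in Snhg1 to 0.664 in Zfas1, with Snhg6 and Snhg15 (both 0.56) above Snhg3 too. The part of these cell types in the results was not tested.

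The contrast that singled out Snhg3 is the antibody difference at 72 h minus that at 24 h. It was 1.98 ± 0.39 (log2) for Snhg3, whose call was settled beforehand by its choice. Of the 9 other hosts 0 were called, where 6.35% of all genes were called, 4.03% higher and 2.32% lower. As a description, Snhg4 (0.88), Snhg5 (0.80) and Snhg15 (0.77) came next, and Gas5 (-0.61), Snhg8 (-0.62) and Zfas1 (-0.63) were on the other side of 0. The nearest host to the threshold was Snhg4, with an adjusted p of 0.0626 by edgeR. A ratio of 2 counts within a library does not depend on how libraries are scaled. The log2 ratio of Snhg3 to Gas5 was -4.46 ± 0.26 (SD, n = 5) in PBS, -3.29 ± 0.34 (n = 3) in LPS at 24 h and -3.53 ± 0.39 with antibody at 24 h. It was -5.36 ± 0.39 in LPS at 72 h and -3.05 ± 0.66 with antibody at 72 h. As a description, the libraries of LPS at 72 h (-5.78, -4.99 and -5.32) lay below every other library. Those of the other LPS groups lay above every PBS library. Snhg3 was chosen on these same libraries, and Gas5 lay on the other side of 0 in the contrast, so this separation is no test.

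It is not known whether reads of Snhg3 were told apart from those of a gene on the other strand. In GENCODE M21 on GRCm38, Snhg3 (chr4:132348014-132353686, minus strand) has 986 exonic bases. Of these, 705 also lie in exons of the antisense lincRNA Gm17300 (chr4:132351772-132353382, plus strand) and 135 in exons of Rcc1 on the same strand. The remaining 165 (16.7%) lie in exons of neither. The counts of Gm17300 were 1.04 to 1.23 times those of Snhg3 in every library (median 1.10; 7431 against 6690 reads in all). Gm17300 changed with Snhg3 throughout: 18.2 ± 2.98 CPM (SD, n = 5) in PBS, 50.5 ± 13.4 (n = 3) in LPS at 24 h, 15.5 ± 5.53 in LPS at 72 h and 48.6 ± 13.4 with antibody at 72 h. Whether the libraries or the counting kept the strand, and how reads over 2 genes were assigned, is not given in the sources used here. The values named Snhg3 are thus read as those of the locus. Rcc1, a guanine nucleotide exchange factor for Ran whose annotated transcripts reach over Snhg3, also rose at 24 h of LPS, from 122 ± 20.4 to 263 ± 44.5 CPM (log2 1.11 ± 0.16, edgeR adjusted p = 0.000487). Its log2 ratio to Snhg3 was 2.91 ± 0.19 in PBS and 2.57 ± 0.21 in LPS at 24 h, and 2.96 ± 0.45 and 2.12 ± 0.64 at 72 h without and with antibody. The libraries overlapped in both pairs of groups, and a change of this ratio was not tested. The other hosts were compared only with genes of the count table, with small RNA genes such as snoRNAs left out. By this rule the exons of Snhg6 (88.9% its own) and Zfas1 (97.2%) share bases with a gene on the other strand. Those of Snhg1, Snhg5, Snhg8, Snhg12, Snhg15 and Gas5 share none, and Snhg4 was not checked.

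**Figure D3:**
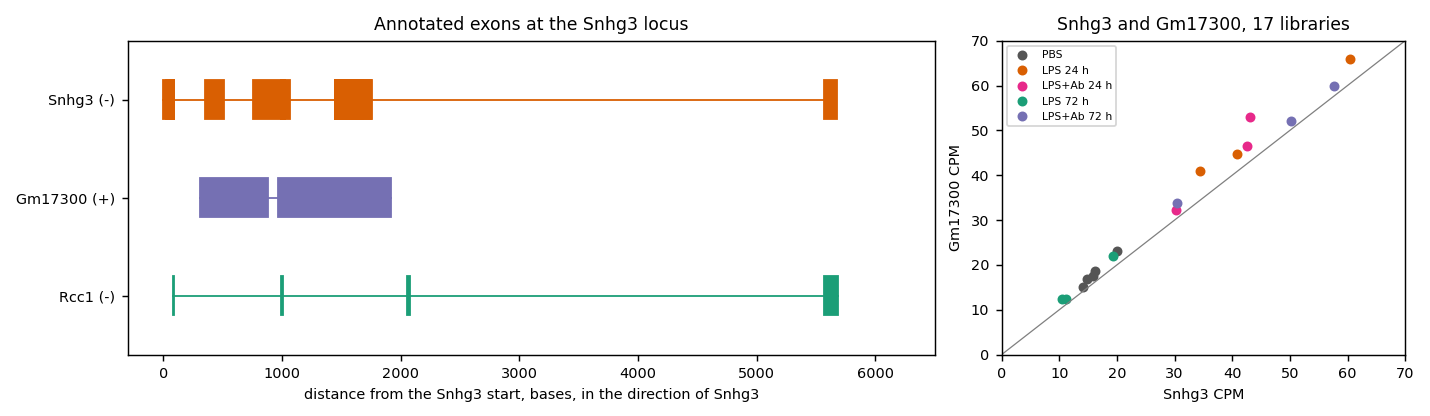
Left, annotated exons (boxes) of Snhg3, Gm17300 and the part of Rcc1 nearby, by distance in bases from the Snhg3 start. Right, CPM of Gm17300 (vertical axis) against Snhg3 (horizontal axis) in 17 libraries coloured by group, with a grey line at equality; all points lie on or just above the line, since the counts of Gm17300 were 1.04 to 1.23 times those of Snhg3.

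Over all 17 libraries the 45 pairs of hosts had Pearson correlations of log2 CPM from 0.00988 to 0.964, with a median of 0.731. Snhg3 and Snhg4 were the closest pair, and Snhg3 and Gas5 the farthest apart. Snhg3, Snhg4, Snhg5 and Snhg15 correlated at 0.83 or more with each other. Gas5, Snhg8 and Zfas1 correlated at 0.84 to 0.86 with each other and at 0.54 or less with those 4. Snhg1, Snhg6 and Snhg12 lay between, though Snhg1 correlated at 0.909 with Snhg12 and at 0.876 with Snhg5. As deviations from the group means, which leave out the differences between groups, all 45 were positive (0.346 to 0.912, median 0.732). All pairs share libraries, and so share their depth and scaling.

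**Figure D4:**
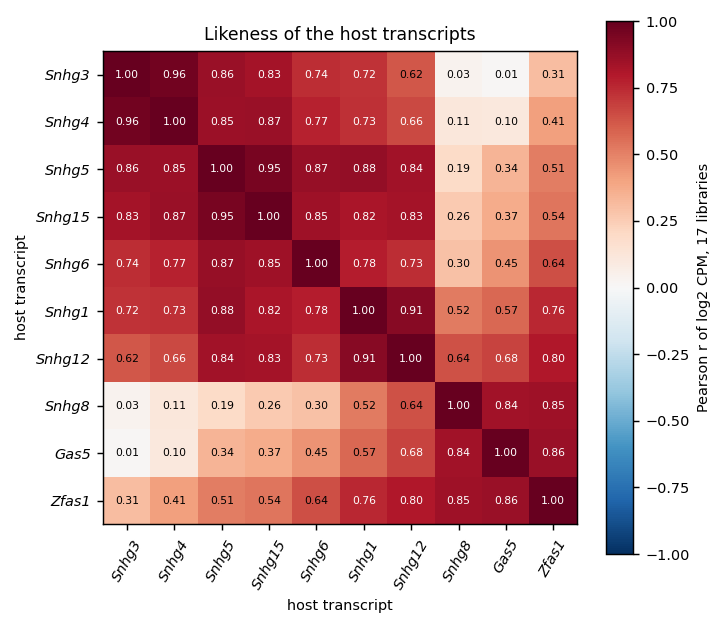
Pearson correlation of log2 CPM between each pair of hosts over 17 libraries, as numbers and colours from -1 to 1. Snhg3, Snhg4, Snhg5 and Snhg15 form a block at 0.83 or more, and Gas5, Snhg8 and Zfas1 a second at 0.84 to 0.86. The differences between groups are included, and the blocks were not kept as deviations from group means.

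With the differences between groups included, the 2 ends of this range correlated with the sums of different gene lists. The summed level of 83 ribosomal protein genes correlated over the 17 libraries with Snhg8 (r = 0.951, Spearman's rho 0.890), Gas5 (0.858, rho 0.757) and Zfas1 (0.782, rho 0.625), and hardly with Snhg3 (-0.0163) or Snhg4 (0.0275). That sum was at 85050 to 109100 CPM in PBS and at 162100, 151000 and 97750 CPM in libraries 1, 2 and 3 of LPS at 72 h, the same 2 libraries in which Gas5 and Snhg8 lay above PBS. The summed level of the proteins that bind snoRNAs or assemble them into particles (snoRNPs) correlated with Snhg5 (0.895, rho 0.821), Snhg3 (0.884, rho 0.841), Snhg15 (0.839) and Snhg4 (0.830), and not with Gas5 (0.0706) or Snhg8 (-0.0197). Leaving out the 2 libraries farthest from the median of the sum left 0.923 for Snhg8 and 0.826 for Gas5 with ribosomal proteins, and 0.850 for Snhg3 and 0.841 for Snhg5 with snoRNP proteins. As deviations from group means, Snhg8 and Gas5 kept 0.940 and 0.799 with ribosomal proteins. This was not particular to them: Snhg1 (0.81), Zfas1 (0.806) and Snhg12 (0.755) were close to Gas5. All 10 hosts were positive there, the lowest being Snhg3 (0.443), which had 0.446 with snoRNP proteins. Snhg5 had 0.681 with snoRNP and 0.558 with ribosomal proteins. In Snhg4 (0.258 against 0.488) and Snhg15 (0.569 against 0.676) the value with ribosomal proteins was the greater of the 2 once the differences between groups were left out. These are descriptions over libraries that fall in 5 groups, and Snhg3 was chosen for its pattern over these groups.

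**Figure D5:**
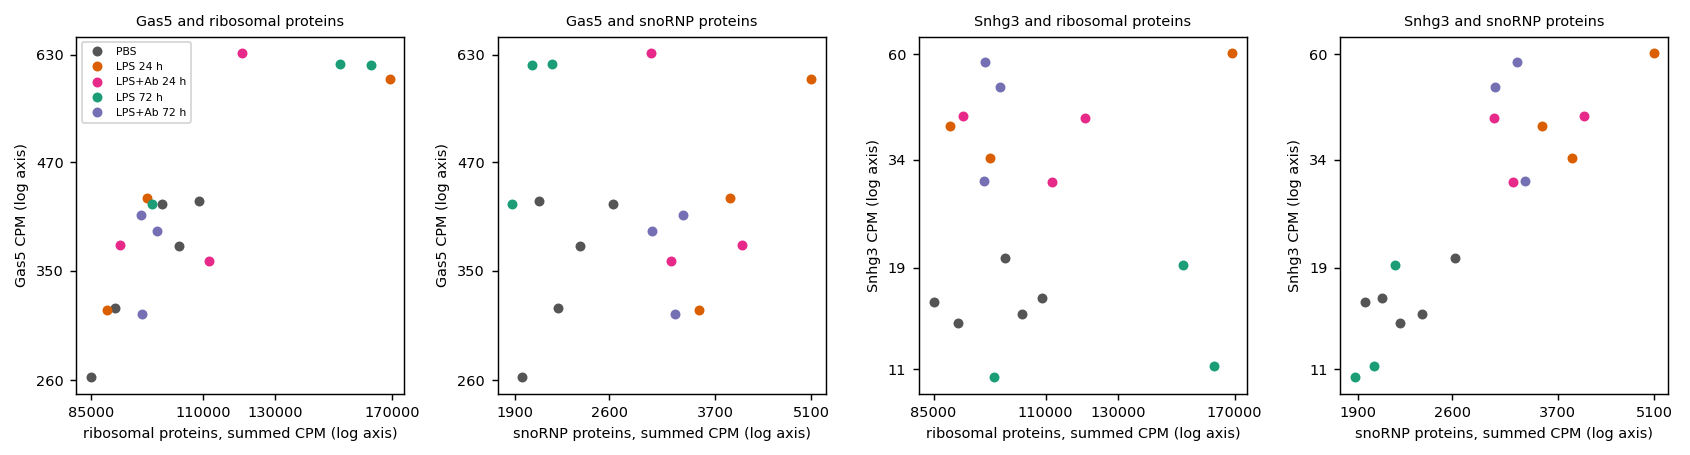
CPM of Gas5 (first 2 panels) and of Snhg3 (last 2) on log axes against the summed CPM of ribosomal protein genes and of snoRNP protein genes, also on log axes, in 17 libraries coloured by group. Gas5 goes with ribosomal proteins (r = 0.858) and Snhg3 with snoRNP proteins (r = 0.884), while the other 2 panels show r of 0.0706 and -0.0163. These r include the differences between groups. As deviations from group means, Gas5 had 0.799 with ribosomal and 0.378 with snoRNP proteins, and Snhg3 had 0.443 and 0.446.

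Most genes for proteins of the snoRNA pathway were higher at 24 h of LPS than in PBS. Of 13 box C/D proteins and assembly factors 12 were called higher than in PBS and 0 lower, where 19.1% of all genes were called higher and 18.5% lower, with a median log2 change of 0.82, against -0.03 over all genes and 0.69 over the hosts. Nolc1, a nucleolar chaperone of snoRNPs, rose by 1.18 ± 0.17, the ATPase Ruvbl2 by 1.13 ± 0.17 and the assembly factor Rpap3 by 0.67 ± 0.11 (edgeR adjusted p from 0.000487 to 0.000595). All 6 box H/ACA genes were called higher (median 0.89), among them the core proteins Gar1 (1.22 ± 0.21) and Nhp2 (1.44 ± 0.26) and the assembly factor Shq1 (0.70 ± 0.13), with adjusted p from 0.000846 to 0.00109. Nhp2 was at 456 CPM in 1 LPS library and at 197 and 179 in the other 2, against 83.2 to 133 in PBS. Without library 1 of LPS at 24 h its log2 change was 0.90 and that of Gar1 0.93, both still called, and 5 of the 6 box H/ACA and 12 of the 13 box C/D genes were called. Protein-coding genes that carry snoRNAs in their introns went the same way: 18 of 26 were called higher and 0 lower (median 0.56), and the 3 with the lowest p were nucleolin (Ncl, 1.20 ± 0.14), the mitochondrial chaperone Hspa9 (1.07 ± 0.12) and the mitochondrial ribosomal protein gene Mrpl3 (0.84 ± 0.12). The lists are not separate sets. Nop56 and Dkc1 are among these 26 and also among the snoRNP genes, and so is Rcc1, which shares exonic bases with Snhg3, among the 26. Of 11 further noncoding hosts 7 were tested, and 2 rose, Dancr (1.04 ± 0.23) and Snhg16 (0.53 ± 0.17), with a median of 0.39 over the 7. The call of Snhg16 was lost without library 1 or 3 of LPS at 24 h or PBS library 2 (0.45 to 0.48, adjusted p up to 0.0976). Of the 81 ribosomal protein genes tested 8 were called higher and 1 lower (median 0.28). This list turned on library 1 of LPS at 24 h, without which the median was -0.10 and 3 were called higher; 3 were also called higher without PBS library 3 or 5, and 17 without library 2 of LPS.

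Genes of nonsense-mediated decay and of the exon junction complex were mixed at 24 h of LPS: 10 of 22 were called higher and 2 lower, with a median of 0.23, where 19.1% of all genes were called higher and 18.5% lower. The release factors Etf1 (log2 1.09 ± 0.13) and Gspt1 (0.87 ± 0.17) and the exon junction helicase Eif4a3 (0.83 ± 0.15) rose, and the endonuclease Smg6, which cuts decay targets, and Pnrc2, which links the pathway to decapping, fell by 0.65 ± 0.14 and 0.39 ± 0.13. The call of Pnrc2 was lost without library 1 or 2 of LPS at 24 h or PBS library 3 or 5 (adjusted p up to 0.0885). Among 14 genes that control translation of TOP messages, 6 were called higher and 0 lower, with the cap-binding protein Eif4e (0.85 ± 0.12), the TOP-binding protein Larp1 (0.80 ± 0.17) and the scaffold Eif4g1 (0.63 ± 0.16). Of 20 TOP genes outside the ribosomal protein list 8 were called higher and 0 lower, with Npm1 (1.09 ± 0.17), Ybx1 (0.68 ± 0.14) and Eef1d (1.09 ± 0.23). Without library 1 of LPS at 24 h, 5 of these 20 were called higher, and Eef1d was at 0.69, still called.

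In LPS alone at 72 h against PBS, where 3 of all genes were called, the median log2 changes were -0.22 for box C/D, -0.06 for box H/ACA, -0.08 for protein-coding hosts and 0.47 for ribosomal proteins. With the antibody at 72 h, compared with LPS alone at 72 h, 8 of 13 box C/D genes were called higher and 1, Pih1d1, lower; the medians of this comparison were 0.66 for box C/D, 0.61 for box H/ACA (3 of 6 higher), 0.48 for protein-coding hosts (11 of 26 higher) and -0.51 for ribosomal proteins (0 higher and 3 of 81 lower), against 0.01 over all genes, of which 8.64% were called higher and 6.48% lower. Without library 2 of LPS at 72 h, 5 box C/D genes were called. The 3 ribosomal protein calls were lost without any one library of the 2 groups but library 3 of LPS at 72 h, without which 25 of 81 were called lower. Nolc1 differed by 1.45 ± 0.20, Nop58, a core box C/D protein, by 1.06 ± 0.16 and Rpap3 by 0.69 ± 0.12; in the box H/ACA list Dkc1, the pseudouridine synthase, differed by 0.78 ± 0.14, Naf1 by 1.11 ± 0.20 and Shq1 by 0.83 ± 0.15. Pih1d1, a subunit of the assembly complex that Rpap3 and Ruvbl2 belong to, fell by 0.74 ± 0.22, a call that was lost without library 1 or 2 of either group (-0.51 to -0.71, adjusted p up to 0.158). The decay list had 4 of 22 higher, TOP control 5 of 14 higher, other TOP genes 2 higher (Npm1, Ybx1) and 1 (Fau) lower of 20, and other noncoding hosts 0 of 7. For the other TOP genes these shares, 2 and 1 of 20, are near those of all genes. The call of Fau was lost without any one library but library 3 of LPS at 72 h, and Npm1 and Ybx1 were not called without library 1 of LPS or library 3 of the antibody group.

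Genes beside the hosts differed in whether they moved. Slc3a2, an amino acid transporter subunit that shares its start region with Snhg1, rose at 24 h of LPS (0.70 ± 0.15, edgeR adjusted p = 0.00307) from 138 ± 21.7 to 223 ± 49.98 CPM, was at 98.8 ± 6.24 CPM in LPS at 72 h and at 190 ± 12.6 CPM with antibody at 72 h (0.95 ± 0.18 between these 2, adjusted p = 0.00395). Snhg1 itself was at 123 ± 20.4 and 142 ± 6.50 CPM in those groups (0.21 ± 0.18, adjusted p = 0.460). Trnau1ap beside Snhg12, Zbtb37 beside Gas5 and Znfx1 beside Zfas1 were not called at 24 h of LPS, with log2 changes of 0.57 ± 0.23, -0.33 ± 0.25 and -0.11 ± 0.30. Mcmdc2 beside Snhg6 and Prss12 beside Snhg8 were under 1 CPM in every group mean. Ranked by correlation of log2 CPM over 17 libraries among 9839 genes with a mean of at least 10 CPM, the genes most like Snhg3 after Gm17300 (r = 0.997) were Trnt1 (0.941), Nus1 (0.938), Gmps (0.938) and Trmt6 (0.936). Those most like Gas5 were Eif3f (0.915), Gpank1 (0.903), Leng1 (0.894) and the ribosomal protein genes Rpl27a (0.892) and Rpsa (0.886). Trnt1 adds the CCA end to transfer RNAs, and it stood at 53.2 ± 6.84 CPM in PBS, 90.6 ± 7.95 in LPS at 24 h, 45.9 ± 2.36 in LPS at 72 h and 85.8 ± 10.6 with antibody at 72 h. Trnt1 was picked for its likeness to Snhg3, so this pattern is no separate result.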

How the data were processed

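The authors deposited 1 table of raw read counts, whole numbers for 35321 gene symbols in 17 libraries. HISAT2 2.2.0, Subread featureCounts 2.1.1, R 4.3.2, DESeq2 and the build GRCm38 are named, without their roles, per the submitters' processing notes. The annotation, the strand setting and the treatment of reads over several genes are not given in the sources used here. There were 0 columns that matched no sample.

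Counts were fitted with edgeR 4.0.16 in R 4.3.3 (filterByExpr at a minimum count of 10, TMM scaling, quasi-likelihood test) in 1 model of all 17 libraries, and p-values were adjusted by Benjamini-Hochberg over the 14920 genes tested, which hold 99.9% of the counts. Standard errors are the log2 change divided by the square root of F. Correlations used log2 CPM with a prior count of 2. The method was tested on simulated counts. No 2 libraries were identical (highest correlation 0.990). The hosts and gene lists were chosen with earlier results of these data known. All hosts are named, and at most 3 genes of each list per direction, those called with the lowest p, besides genes next to a host (1 is not reported here) and the 5 genes most like Snhg3 and Gas5. Pih1d1, Fau, Dancr and Snhg16 are covered by this rule.

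Replicate numbers come from the sample titles. Deviations from group means of same-numbered libraries correlated at 0.191, 0.188 and 0.158 in LPS 24 h against PBS, all over 0.1. In the other comparisons at least 1 pair did not reach 0.1. The greatest values were between the antibody groups at 24 h and 72 h, where numbers 1, 2 and 3 had 0.723, -0.0217 and 0.697. The lowest was -0.365, for number 3 of the antibody comparison at 24 h. Differently numbered libraries were not compared, so these values do not show that the numbers pair libraries. The block was fitted over all groups at once and is given only as an alternative. Alternatives were DESeq2's size factors and Wald test (1.42.0), upper-quartile scaling, no filter on low counts, the replicate block, a fit of only the groups compared, and each library left out in turn, which for the gene lists was added after the data were seen. Exons are from GENCODE M21 and promoters from RefSeq GRCm38.p6. Of the symbols in the table, 34224 are in the first and 26307 in the second.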

Additional observations from a re-analysis of the deposited data

Results flagged for a closer look

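In PBS, library 1 lay far above the other 4 libraries for Snhg6 (29.3 CPM, the others 21.1 to 22.7) and for Snhg15 (35.4 CPM, the others 23.8 to 27.1). The gap to the nearest library was 0.811 of the range of the group for Snhg6 and 0.715 for Snhg15, past the critical value for 5 samples, which chance passes in about 1 in 20 groups. The antibody difference of Snhg3 was 1.98 greater on the log2 scale at 72 h than at 24 h, and this value is the one for which Snhg3 was chosen.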

How the results depend on the processing

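Apart from Snhg3, which was chosen on these libraries, the 16 host changes that were called kept their direction in 216 of 216 refits and their call in 178. Leaving out 1 library at a time, the number of hosts called ranged from 3 to 8 for LPS 24 h against PBS (7 with all), from 2 to 6 for LPS with antibody 24 h against PBS (5), from 2 to 4 for LPS with antibody 72 h against PBS (3), from 2 to 4 for LPS 72 h against 24 h (4), from 2 to 3 for the antibody at 72 h (2, with Snhg8 lower without library 3 of LPS) and from 1 to 3 for the antibody-by-time contrast (1). Fitted on only the compared groups, LPS with antibody 72 h against PBS had 5 hosts called (3 with all groups). DESeq2's Wald test called 2 in the antibody-by-time contrast, Snhg3 and Snhg4 (adjusted p = 0.0272 for Snhg4). Every count of hosts in that contrast includes Snhg3, which was chosen by it. Upper-quartile scaling moved the median of all genes at 24 h of LPS against PBS from -0.03 to -0.16, where 5 hosts were called, and turned Snhg8 (-0.02) and Gas5 (-0.05) below PBS in LPS with antibody at 72 h. With the replicate block, 6 hosts were called in LPS 24 h against PBS, and 4 and 2 in LPS with antibody against PBS at 24 h and 72 h, where Snhg1 was not called (adjusted p = 0.0601 and 0.0788). No more than a shared number is known to link the libraries. Apart from Snhg1 in those last 2 and Snhg12 in LPS 24 h against PBS, the block moved no host across the threshold. Over all genes it took the calls from 3605 to 1721 and from 1975 to 374 in those last 2. It took them from 3 to 0 in LPS 72 h against PBS and from 947 to 333 in the antibody-by-time contrast. DESeq2 called 172 genes in LPS 72 h against PBS where edgeR called 3, 1710 against 947 in the antibody-by-time contrast, and 1 against 0 in each of the antibody comparison at 24 h and the antibody groups between times. Fitting only the compared groups gave 99 genes in LPS 72 h against PBS, 1123 (2256 with all groups) for the antibody at 72 h and 286 in the antibody-by-time contrast, which had 617 with no filter on low counts. Why these counts moved was not tested.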
